A study of Homo sapiens with 6 samples.

Results

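The BCL2 family sets the threshold for mitochondrial apoptosis, and 10 of its genes and interaction partners were followed in A549 cells with and without the MIR21 gene. They were the anti-apoptotic members BCL2, BCL2L1 and MCL1, the effectors BAX and BAK1, the BH3-only members BID, BAD, BIK and BCL2L11, and the BAX-binding MOAP1. Members were chosen by gene symbol, which matched 10 of the 58174 genes listed, and 9 of them passed the filter for testing, a mean of at least 0.5 FPKM (fragments per kilobase of gene, scaled by library size). BCL2 did not pass it. A549 cells are a long-established line from a human lung adenocarcinoma. Ctrl cells were the parental population, and MIR21-KO cells came from single sorted cells in which Cas9 and a pair of guide RNAs had deleted a stretch of the MIR21 locus. Each group had 3 libraries of polyA RNA, and both groups were grown in the same serum-containing medium and harvested 48 hours after seeding. How many clones stand behind the 3 MIR21-KO libraries is not given in the sources used here, so clonal differences and the deletion cannot be told apart. The study calls its replicates independent samples and its experiments biological triplicates, without saying how the cultures of these libraries were separated. P-values measure the spread between these libraries.

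BCL2 proteins meet at the outer mitochondrial membrane. Anti-apoptotic members hold the effectors BAX and BAK1 in check, BH3-only members relieve that hold or activate the effectors directly, and active effectors open the membrane so that cytochrome c reaches the cytosol and caspases are switched on. MOAP1, also called MAP-1, is a BAX-associating protein that couples signals through RASSF1A to BAX. miR-21-5p is an abundant microRNA in many carcinomas, and microRNAs pair through their seed with sites that lie mostly in 3′ UTRs.

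Letters that match the miR-21-5p seed were found in annotated 3′ UTRs of 3 members, BCL2, BID and MOAP1. The mature miRNA is shown first, from RefSeq (GRCh38.p14, chr17:59841273-59841294, plus strand), with bases 2 to 8, the seed, in capitals. The 3 stretches below it are read on the gene's strand from GENCODE 29 transcripts (GRCh38), and capitals mark the heptamer TAAGCTA, which is the complement of bases 2 to 7 followed by an A. They are shown because these are the members in which pairing to miR-21-5p could be looked for.
miR-21-5p: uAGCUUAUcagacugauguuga
BCL2, chr18:63127895-63127921, minus strand: taggaaagtattttttTAAGCTAccaa
BID, chr22:17734479-17734505, minus strand: tctgctgttccagtggTAAGCTAtgtc
MOAP1, chr14:93182839-93182865, minus strand: ctccgccttccaggttTAAGCTAttct
The match began 720 bases into the longest annotated 3′ UTR of BCL2, 1091 bases into that of BID and 338 bases into that of MOAP1. It was annotated in 2, 7 and 2 transcripts of these genes, respectively. The other heptamer of the seed, ATAAGCT, and the octamer ATAAGCTA were in no annotated 3′ UTR of any member, and the remaining 7 members also lacked the hexamer TAAGCT that all of these matches share. Only the sense strand was searched. Among 19151 protein-coding genes, 7.42% held TAAGCTA in the longest 3′ UTR, 9.2% held ATAAGCT, 2.53% held ATAAGCTA, a share included in both, and 25.8% held the hexamer. The 3 members with the match did not move alike, since MOAP1 rose, BID had lower values in MIR21-KO without a call, and BCL2 was too low to be tested. Of 535 tested protein-coding genes whose best match was TAAGCTA, 8.6% were called higher and 9.91% lower, with a median log2 difference of −0.091. The shares were 10.1% higher and 6.92% lower for 347 genes with the octamer (median 0.0), 8.6% and 7.69% for 884 with ATAAGCT as best match (median −0.036), and 8.04% and 10.5% for 1667 with the hexamer alone (median −0.088). Among 8224 tested genes without any match, 9.35% were called higher and 11.2% lower, with a median of −0.03. A match of letters is a description and shows no binding.

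Libraries held 10631667 to 14345209 reads, recovered from the FPKM values, and reads behind each member are given below because they limit its precision. MIR21 itself was listed at 0 in all 6 libraries, so the deletion could not be checked in these data. All 6 epithelial markers averaged at least 0.5 FPKM, EPCAM with only 12 to 57 reads. Their summed level was 1684.2 to 1806.8 FPKM in Ctrl and 1217.4 to 1744.9 in MIR21-KO. Of these markers 1 was called (16.7%, beside 16.0% of all tested genes). It was the adherens junction gene CDH1, which fell from 8.18 to 2.86 FPKM (log2 difference −1.48, limma FDR 0.000175). KRT18, a larger part of the sum, went from 673.4 to 422.1 FPKM without a call (limma FDR 0.0153). Log2 differences were negative for 4 of the markers and positive for 2. Summed markers of alveolar type II cells reached at most 0.0996 FPKM, with SFTPA1 and NKX2-1 at 0, those of leukocytes 0.0175, with CD3E at 0, and those of endothelium 0.0707. The 3 fibroblast markers summed to 3.43 to 3.69 FPKM in Ctrl and 4.01 to 5.31 in MIR21-KO, most of it COL1A1, which was the only one tested and was not called. COL3A1 and PDGFRB were too low to be tested, and both were higher in each MIR21-KO library than in any Ctrl library, with means of 0.112 and 0.589 FPKM for COL3A1 (5 to 56 reads) and of 0.0235 and 0.116 FPKM for PDGFRB (1 to 15 reads). Whether these marker sums bear on the differences of the members was not tested.

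In Ctrl cells BAX had the highest mRNA level of the members, followed by BCL2L1, MCL1, BAD, BID, BAK1, MOAP1, BCL2L11, BIK and BCL2. FPKM is scaled by a listed gene length, which exceeds the longest annotated transcript unevenly. It is 2587 against 1358 bases for BAX and 4446 against 2495 for BID, but 2212 bases for both in BAK1. The order between genes is therefore approximate. The ranges of MOAP1 and BCL2L11, and those of BCL2L11 and BIK, overlapped among these neighbours, whereas all other neighbours were separate. In MIR21-KO cells the order became BAX, MCL1, BAD, BCL2L1, BAK1, BID, MOAP1, BCL2L11, BIK and BCL2. There, BAD and BCL2L1 overlapped, as did BAK1 and BID. BCL2L1 thus moved from the second to the fourth place, below MCL1 and beside BAD.

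**Figure D1:**
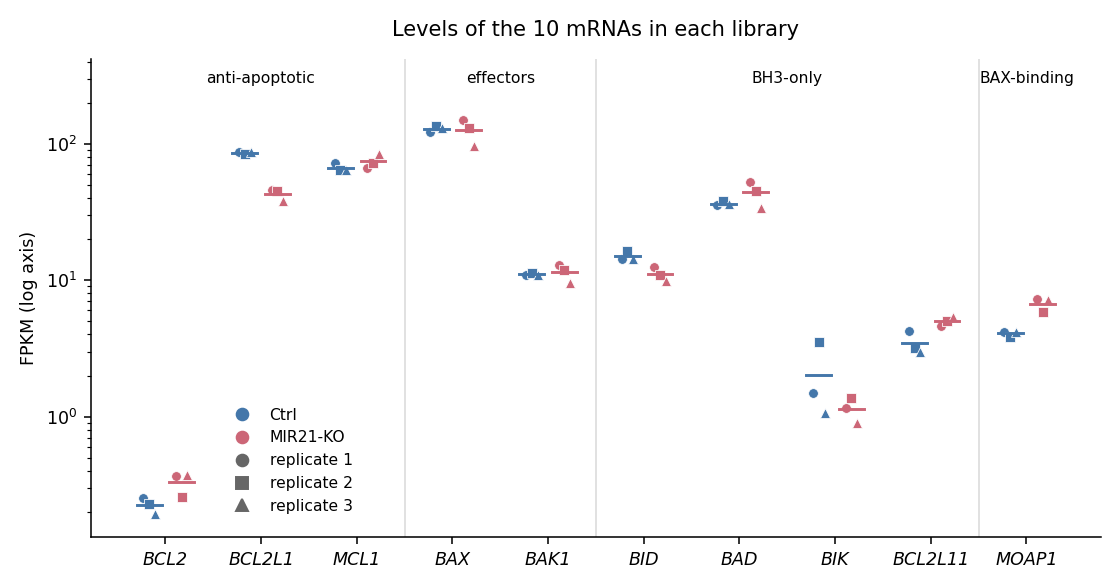
FPKM (log axis) of the 10 mRNAs in each of the 3 Ctrl and 3 MIR21-KO libraries, with symbols for replicates and short lines for group means, ordered by role. BCL2L1 falls from a mean of 86.1 to 43.1 FPKM and MOAP1 rises from 4.07 to 6.72, whereas the points of MCL1, BAX, BAK1, BAD and BIK overlap between groups.

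In the comparison of MIR21-KO with Ctrl, which asks how these mRNAs differ in cells without miR-21, 1 member rose and 1 fell. MOAP1 was higher and BCL2L1 lower at an FDR under 0.01, the threshold of the study. These are 2 of 9 tested members (22.2%), against 16.0% of all 16006 tested genes, 7.66% called higher and 8.38% called lower. The median log2 difference of the 9 members was 0.04, beside −0.017 over all tested genes. Groups did not overlap for BCL2L1, BID, BCL2L11 and MOAP1, 4 of 9 tested members (44.4%), while 48.1% of all tested genes showed such separation. Counted from recovered reads with voom, 2 of the 9 were called, beside 21.8% of all genes. With trends on GC content and gene length removed from each library, 3 were called, BID in addition, beside 24.8%. At an FDR under 0.05, 4 of the 9 were called, with 32.0% of all tested genes. The members as a list therefore lay near the background, and the account below is of single mRNAs.

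Among the anti-apoptotic members, BCL2L1 fell to about the level of BAD. The gene encodes BCL-xL, with the short BCL-xS as a splice form, and gene-level values do not separate these isoforms. BCL2L1 (ENSG00000171552, chr20:31664452-31723989, minus strand, GRCh38) had 87.3, 84.1 and 86.9 FPKM in Ctrl and 46.3, 45.1 and 38.0 FPKM in MIR21-KO. Each Ctrl library lay above each MIR21-KO library, and the distance between groups was far larger than the range within either. Means were 86.1 ± 1.76 FPKM (SD, n = 3) and 43.1 ± 4.46 FPKM (SD, n = 3), a ratio of 0.501. The log2 difference was −1.0 with a standard error of 0.093 and a 95% confidence interval from −1.22 to −0.78 (limma FDR 0.000622). Only 4.6% of tested genes had a lower log2 difference. In such bulk RNA, fewer cells with the mRNA and less mRNA per cell cannot be told apart. With 1635 to 3941 reads per library, counting error was small for this gene, and the call held in all 16 alternative analyses, with log2 differences from −1.08 to −0.91.

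BCL2L1 shares 43.0% of its exon bases with ABALON, an antisense transcript on the opposite strand. Libraries were strand-specific, but the strand setting of the counting is not given in the sources used here, so reads of the pair may have been exchanged. ABALON was listed at 13.1, 14.9 and 10.9 FPKM in Ctrl and at 4.40, 4.25 and 5.71 FPKM in MIR21-KO (log2 difference −1.42, limma FDR 0.00127). It moved in the same direction as BCL2L1, with 283 to 318 reads in Ctrl and 99 to 141 reads in MIR21-KO, and its part in the BCL2L1 value was not tested.

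MCL1, a short-lived anti-apoptotic protein that binds BAK1 and BIM, did not follow BCL2L1. MCL1 (ENSG00000143384, chr1:150574551-150579738, minus strand) measured 72.0, 64.7 and 64.6 FPKM in Ctrl and 66.8, 72.4 and 84.7 FPKM in MIR21-KO. The first MIR21-KO library fell inside the Ctrl range and the other two above it. Its log2 difference was 0.15 with a 95% confidence interval from −0.11 to 0.40 (limma FDR 0.336), which leaves room for a small rise as well as none.

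With BCL2L1 lower and MCL1 not called, the highest mRNA among BCL2, BCL2L1 and MCL1 differed between the groups. This order compares FPKM between genes and is therefore approximate, and reads of ABALON may be part of the BCL2L1 value. BCL2L1 was 1.21, 1.30 and 1.35 times MCL1 in the Ctrl libraries, and 0.693, 0.623 and 0.449 times MCL1 in MIR21-KO. BCL2L1 was thus above MCL1 in each Ctrl library and below it in each MIR21-KO library. The sum of BCL2, BCL2L1 and MCL1 was 159.6, 149.0 and 151.8 FPKM in Ctrl and 113.4, 117.8 and 123.1 FPKM in MIR21-KO, and BCL2L1 made up 54.7 to 57.3% of it in Ctrl and 30.9 to 40.8% in MIR21-KO. These ratios were computed from the values above and are given without a test.

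**Figure D2:**
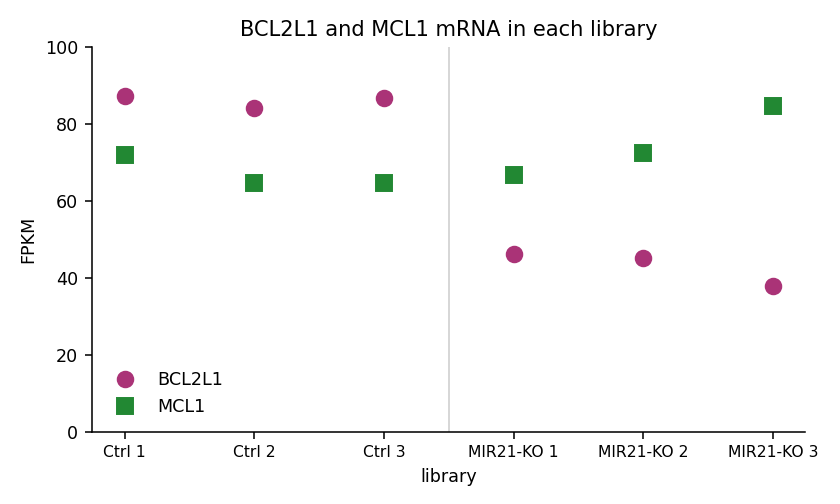
FPKM (linear axis from 0) of BCL2L1 (circles) and MCL1 (squares) in each library, Ctrl left and MIR21-KO right of the line. BCL2L1 lies above MCL1 in the 3 Ctrl libraries, with 84.1 FPKM or more, and below it in the 3 MIR21-KO libraries, with 46.3 FPKM or less.

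BCL2, the founding member of the family, was barely expressed. BCL2 (ENSG00000171791, chr18:63123346-63320128, minus strand) reached 0.254, 0.229 and 0.193 FPKM in Ctrl and 0.368, 0.257 and 0.374 FPKM in MIR21-KO. MIR21-KO values were the higher ones without overlap, but the second MIR21-KO library lay close to the highest Ctrl library. Between 29 and 59 reads stood behind each value. BCL2 missed the filter on low values, and without that filter its log2 difference was 0.40 with a standard error of 0.28 (limma FDR 0.429). No difference in BCL2 was detectable at this depth.

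The effectors BAX and BAK1, which form the pores in the outer membrane, showed no called difference. BAX (ENSG00000087088, chr19:48954815-48961798, plus strand) had 123.1, 135.0 and 131.2 FPKM in Ctrl and 149.1, 130.7 and 97.2 FPKM in MIR21-KO. The MIR21-KO libraries lay both above and below the Ctrl range, with an SD of 26.3 FPKM against 6.07 FPKM in Ctrl. The log2 difference was −0.07 with a 95% confidence interval from −0.45 to 0.31 (limma FDR 0.777). BAK1 (ENSG00000030110, chr6:33572547-33580293, minus strand) was listed at 10.9, 11.3 and 10.9 FPKM in Ctrl and at 12.9, 11.8 and 9.55 FPKM in MIR21-KO. Here too the third MIR21-KO library was the lowest of all 6 and the first the highest. The log2 difference was 0.04 with an interval from −0.24 to 0.32 (limma FDR 0.832), both intervals leaving out a change by 1 log2 unit. BAX was 1.41, 1.61 and 1.51 times BCL2L1 in Ctrl and 3.22, 2.90 and 2.56 times in MIR21-KO. The groups did not overlap in this ratio, which was not tested, and BAX itself was not called.

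BH3-only members differed among themselves. BCL2L11 and BID separated between groups in opposite directions without reaching an FDR of 0.01, while BAD and BIK overlapped. BCL2L11 encodes BIM, which binds all anti-apoptotic members and can activate the effectors. BCL2L11 (ENSG00000153094, chr2:111119378-111168447, plus strand) had 4.25, 3.16 and 3.0 FPKM in Ctrl and 4.64, 5.02 and 5.33 FPKM in MIR21-KO. All MIR21-KO values were above all Ctrl values, with the first Ctrl library close to the lowest of them. Means were 3.47 ± 0.680 and 5.00 ± 0.343 FPKM (SD, n = 3 each), and the log2 difference was 0.53 with a 95% confidence interval from 0.17 to 0.89 (limma FDR 0.0372). BCL2L11 shares 10.9% of its exon bases with the non-coding MIR4435-2HG on the opposite strand, which was higher in MIR21-KO (3.81 ± 0.267 and 6.09 ± 0.690 FPKM, log2 difference 0.66, limma FDR 0.00645), and its part in the BCL2L11 value was not tested. Relative to BCL2L1, BCL2L11 amounted to 4.86, 3.75 and 3.45% in Ctrl and to 10.0, 11.1 and 14.0% in MIR21-KO.

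BID links death receptors to mitochondria after cleavage by caspase-8. Its mRNA (ENSG00000015475, chr22:17734138-17774770, minus strand) measured 14.4, 16.3 and 14.3 FPKM in Ctrl and 12.6, 10.9 and 9.92 FPKM in MIR21-KO. Every MIR21-KO library was below every Ctrl library. Means were 15.0 ± 1.16 and 11.1 ± 1.35 FPKM (SD, n = 3 each), with a log2 difference of −0.43 and a 95% confidence interval from −0.69 to −0.17 (limma FDR 0.0253). BID passed the threshold when reads were scaled by library totals (limma FDR 0.00996) and when trends on GC content and length were removed (limma FDR 0.0092), in the same direction. It carries the heptamer shown above and had the opposite direction to MOAP1.

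BAD, which neutralises BCL2 and BCL-xL when unphosphorylated, was the most abundant BH3-only mRNA. BAD (ENSG00000002330, chr11:64269830-64284704, minus strand) had 35.4, 37.9 and 36.3 FPKM in Ctrl and 53, 45.4 and 33.9 FPKM in MIR21-KO. As for BAX and BAK1, the MIR21-KO libraries descended from the first to the third and enclosed the Ctrl range. A log2 difference of 0.25 was found, with an interval from −0.13 to 0.62 (limma FDR 0.28). BAD shares 23.7% of its exon bases with GPR137 on the opposite strand, which had a log2 difference of 0.05 (limma FDR 0.832).

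BIK, a BH3-only protein of the endoplasmic reticulum, was measured from few reads. BIK (ENSG00000100290, chr22:43110748-43129712, plus strand) had 1.48, 3.51 and 1.07 FPKM in Ctrl and 1.16, 1.37 and 0.890 FPKM in MIR21-KO, from 11 to 36 reads. The second Ctrl library stood above the other 5. The log2 difference was −0.63 with an interval from −1.62 to 0.37 (limma FDR 0.295), too wide for a statement on direction.

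**Figure D3:**
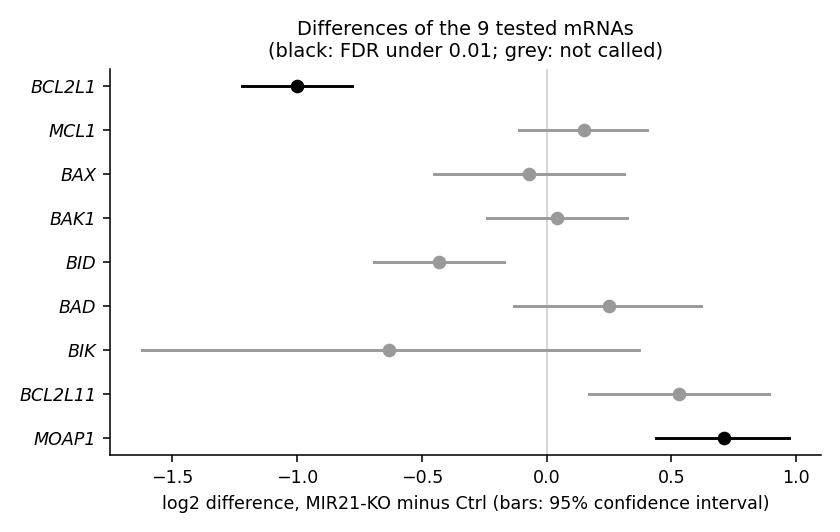
Log2 difference, MIR21-KO minus Ctrl, of the 9 tested mRNAs with 95% confidence intervals from the limma fit over all genes; black marks an FDR under 0.01. BCL2L1 at −1.0 and MOAP1 at 0.71 are black, the grey intervals of BID and BCL2L11 also leave out 0, and those of MCL1, BAX, BAK1, BAD and BIK include it.

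MOAP1 was the member that rose. MOAP1 (ENSG00000165943, chr14:93182196-93184928, minus strand) had 4.18, 3.85 and 4.18 FPKM in Ctrl and 7.23, 5.83 and 7.11 FPKM in MIR21-KO. All MIR21-KO libraries exceeded all Ctrl libraries, with the second one closest. Means were 4.07 ± 0.191 and 6.72 ± 0.778 FPKM (SD, n = 3 each), a ratio of 1.65. The log2 difference was 0.71 with a standard error of 0.11 and a 95% confidence interval from 0.44 to 0.97 (limma FDR 0.00459), and 87.6% of tested genes had a lower one. Between 105 and 250 reads lay behind each value. The direction was the same in all 16 alternative analyses, with log2 differences from 0.60 to 0.80, but the call held in 10 of them. Among the others, the FDR rose to 0.0213, 0.023 or 0.0221 by limma without Ctrl replicate 1, 2 or 3, to 0.0115 without MIR21-KO replicate 1 and to 0.01 without the filter on low values.

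MOAP1 was among the tumor suppressor mRNAs that the study picked with these libraries in view, so its direction is not independent evidence. The other 4 of them, PDCD4, BTG1, BTG2 and FOXP1, were called higher, with log2 differences of 1.38, 1.18, 0.59 and 1.16 (limma FDR 0.000123, 9.5e-05, 0.00351 and 0.000645), and MOAP1 lay between BTG2 and FOXP1. Outside these libraries, the study reported more MOAP1 protein in A549 cells without MIR21 and more MOAP1 mRNA in another such lung line. In A549 cells without MIR21, it also found a reporter with the predicted 3′ UTR site of MOAP1 more active. Circular RNA decoys of miR-21-5p raised MOAP1 mRNA in that study as well. Of 6797 protein-coding genes averaging 5 FPKM or more, those with the pattern most like MOAP1 over the 6 libraries were AGA, KIFAP3 and FZD7. Likeness was the root-mean-square distance of log2 values centred on the Ctrl mean, which was 0.061 for AGA, 0.0825 for KIFAP3 and 0.085 for FZD7. AGA, a lysosomal enzyme, changed from 6.58 to 11.4 FPKM, KIFAP3, a kinesin-associated protein, from 4.49 to 7.17 FPKM and the Wnt receptor FZD7 from 4.0 to 6.95 FPKM.

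The MIR21-KO libraries had opposed orders for some members that differ in base composition. Over 15955 tested genes with a known GC content (99.7%), the deviation of a library rose by 0.158 on the log2 scale per 10% GC in the first MIR21-KO library and by 0.0816 in the second, and was −0.0845 in the third, whereas Ctrl slopes were −0.0863, −0.0257 and −0.0432. The GC-rich members BAD (66.3% GC), BAX (58.9%) and BAK1 (58.8%) were higher in the first than in the third MIR21-KO library by 0.64, 0.62 and 0.43 on the log2 scale. MCL1 (45.1%) and BCL2L11 (45.7%) had the reverse order, with −0.34 and −0.19, and MOAP1 (49.8%) hardly differed, with 0.02. BID, at nearly the same GC content as MOAP1 (49.7%), differed by 0.34, and BCL2L1 at 56.9% by 0.28. BIK (56.0%) differed by 0.34 and BCL2 (45.6%) by −0.02. Whether GC content bears on these orders was not tested. After removal of trends on GC content and length, a choice made after the data were seen, BCL2L1 had a log2 difference of −1.08 (limma FDR 3.22e-05) and MOAP1 one of 0.68 (limma FDR 0.00428). BAX then had −0.18 (limma FDR 0.0637), BAD 0.07 (limma FDR 0.307) and BAK1 −0.08 (limma FDR 0.278), so that BAK1 changed sign without a call.

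**Figure D4:**
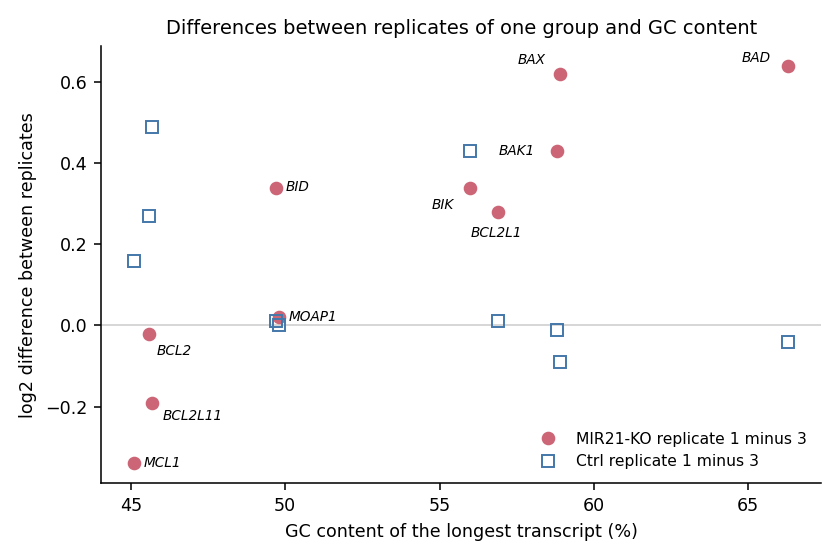
GC content of each member's longest transcript (percent) against the log2 difference between replicates 1 and 3 of one group, filled circles for MIR21-KO and open squares for Ctrl. MIR21-KO values range from −0.34 for MCL1 at 45.1% GC to 0.64 for BAD at 66.3% GC, and the Ctrl squares show no such rise.

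Around the members, 68 further genes of apoptosis and stress responses were counted in lists, and 59 of them were tested. Of these, 6 rose and 13 fell, 32.2% against the 16.0% of all tested genes, with a median log2 difference of −0.01. With GC and length trends removed, 12 rose and 13 fell. The counts depended on the libraries, since 7, 9 and 4 genes were called without Ctrl replicate 1, 2 or 3 and 4 without MIR21-KO replicate 2. Lists were compiled with earlier results of these data known, and nothing particular to them is drawn from the counts.

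Of 12 tested relatives in the BCL2 family, 2 rose and 3 fell (41.7%, beside 16.0% of all tested genes). BMF, a BH3-only gene, had 0.288, 0.171 and 0.242 FPKM in Ctrl and 1.59, 1.36 and 1.12 FPKM in MIR21-KO, with 10 to 118 reads and a log2 difference of 2.13 ± 0.30 (SE, limma FDR 0.00273). It was low in all libraries, and the groups did not overlap. Its Ctrl mean of 0.234 FPKM lay below the filter of 0.5 FPKM. BMF was tested only because of its MIR21-KO mean of 1.36 FPKM, so its call rests on the group where it was higher. BNIP3L, a mitophagy receptor, rose from 14.3 ± 0.318 to 19.9 ± 1.82 FPKM (SD, n = 3 each, limma FDR 0.00685), and its relative BNIP3 fell from 13.5 ± 0.452 to 8.08 ± 0.551 FPKM (SD, n = 3 each, limma FDR 0.00114). The anti-apoptotic BCL2A1 fell from 12 ± 0.481 to 8.10 ± 0.222 FPKM (SD, n = 3 each, limma FDR 0.00214). BCL2L12 fell from 24.0 ± 2.01 to 14.1 ± 1.95 FPKM (SD, n = 3 each, limma FDR 0.00408), and shares 33.1% of its exon bases with IRF3 on the opposite strand. The remaining 7 included BBC3, which encodes PUMA, with a log2 difference of 0.67 (limma FDR 0.0292), and PMAIP1, which encodes NOXA, with −0.22 (limma FDR 0.214).

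Downstream of the effectors, 1 of 13 tested genes of cytochrome c release and the apoptosome rose and 4 fell. Thus 38.5% were called, beside 16.0% of all tested genes. CYCS, cytochrome c itself, had 71.0, 76.4 and 70.8 FPKM in Ctrl and 36.4, 37.4 and 38.7 FPKM in MIR21-KO (log2 difference −0.95, limma FDR 0.000256). The outer membrane channel VDAC1 had 119.1, 122.9 and 124.1 FPKM in Ctrl and 58.9, 61.4 and 60.8 FPKM in MIR21-KO (log2 difference −1.01, limma FDR 0.000186). Both fell by about as much as BCL2L1, with tight replicates. VDAC3 and AIFM1, a flavoprotein of the intermembrane space, fell with log2 differences of −0.55 and −0.59 (limma FDR 0.00272 and 0.00508), and the executioner caspase CASP6 rose with 0.56 (limma FDR 0.00293). The other 8 were not called, among them the scaffold APAF1 with 0.03 (limma FDR 0.911) and the initiator CASP9 with −0.15 (limma FDR 0.347).

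Among inhibitors of apoptosis, 2 of 6 tested fell and none rose (33.3%, beside 16.0% of all tested genes). BIRC3, an NF-kappaB target encoding cIAP2, had 10.4, 9.13 and 10.1 FPKM in Ctrl and 2.55, 3.48 and 4.30 FPKM in MIR21-KO (log2 difference −1.52, limma FDR 0.00172). BIRC5, survivin, which also acts in mitosis, fell from 70.8 ± 2.68 to 45.3 ± 6.16 FPKM (SD, n = 3 each, limma FDR 0.00542). XIAP, the direct caspase inhibitor, had a log2 difference of 0.16 (limma FDR 0.379).

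In the death receptor arm, which meets the mitochondrial pathway at BID, 1 of 12 tested genes was called (8.33%, beside 16.0% of all tested). TNFRSF10A, a receptor for TRAIL, fell from 10.7 ± 0.618 to 7.22 ± 0.268 FPKM (SD, n = 3 each, limma FDR 0.00323). The log2 differences of the other 11 lay between −0.12 and 0.51, with CASP8, the protease that cleaves BID, at 0.03 (limma FDR 0.827).

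Of the partners of MOAP1 and its relatives in the PNMA family, 5 were tested and 1 rose (20.0%, beside 16.0% of all tested). PNMA1 had 33.4, 30.2 and 32.2 FPKM in Ctrl and 50.9, 50.3 and 48.5 FPKM in MIR21-KO (log2 difference 0.64, limma FDR 0.00111), close in size to MOAP1. RASSF1, whose product RASSF1A binds MOAP1, had a log2 difference of −0.13 (limma FDR 0.42). PNMA2, PNMA6A and PNMA8A lay between 0.02 and 0.39 without a call.

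A last list held genes of DNA damage and stress responses. Of its 11 tested genes, 2 rose and 3 fell (45.5%, beside 16.0% of all tested genes). TP53I3, an oxidoreductase, rose from 67.0 ± 2.55 to 171.5 ± 21 FPKM (SD, n = 3 each, limma FDR 0.00035), and SESN1 rose with a log2 difference of 0.60 (limma FDR 0.00863). GDF15, a secreted stress factor, fell from 38.1 ± 2.20 to 13.6 ± 3.92 FPKM (SD, n = 3 each, limma FDR 0.00227). AEN and TIGAR fell with −0.69 and −0.57 (limma FDR 0.001 and 0.00278), and TIGAR shares 42.6% of its exon bases with another annotated gene on the same strand. CDKN1A, the cell cycle inhibitor p21, had a log2 difference of 0.27 (limma FDR 0.0736).

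**Figure D5:**
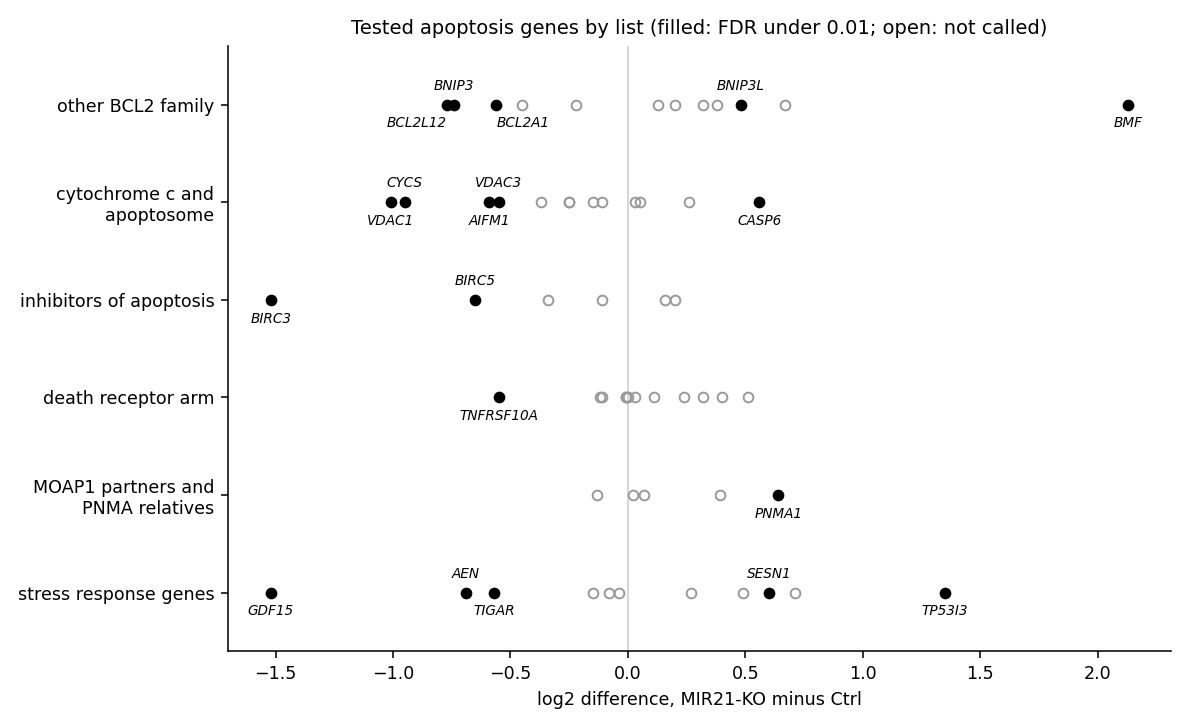
Log2 differences, MIR21-KO minus Ctrl, of the 59 tested apoptosis and stress response genes in 6 lists, with filled and named points at an FDR under 0.01 and open points otherwise. Filled points lie on both sides of 0 in the BCL2 family, apoptosome and stress response lists, and range from −1.52 for BIRC3 and GDF15 to 2.13 for BMF. BMF passed the filter on low values only through its MIR21-KO level.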

How the data were processed

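PolyA RNA-seq data of 3 Ctrl and 3 MIR21-KO A549 libraries were used, grouped by sample title. Per the labels, libraries were strand-specific and sequenced on an Illumina HiSeq instrument. The submitters' processing notes name cutadapt 1.14, HISAT2 2.1.0, SAMtools 1.5, featureCounts 1.5.3, edgeR 3.18.1 and hg38. Annotation release and strand setting are not given in the sources used here. The authors deposited FPKM values per gene and library, and their FDRs followed TMM normalization according to the study's methods. 3 further columns hold the authors' own fold changes with their p-values and FDRs and were not used.

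FPKM times gene length gave whole reads for 100% of values within a tolerance of 0.01 reads. The library sizes implied by the FPKM were 0.9497 to 1.0304 times the read sums (10631667 to 14345209), so a scaling factor had been applied. Whether it was that of the TMM normalization is not stated in the sources used here. The alternative scaling by total reads removes it. A floor of 3 reads corresponds to 0.219 to 0.279 FPKM for 1 kb of gene length, covering counting error only.

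log2(FPKM + 0.1) of the 16006 genes averaging 0.5 FPKM or more was tested with limma 3.58.1 in R 4.3.3 (trended, robust eBayes, no covariate, two-sided), with Benjamini-Hochberg FDRs over all tested genes and calls at an FDR under 0.01. On this scale changes of low genes are understated. In a simulation of the Ctrl and MIR21-KO comparison on 16006 genes, limma recovered 177 of 200 genes changed 2-fold (88.5%) with 9 false calls. With voom, 199 were recovered (99.5%) with 2 false calls. Changed genes averaged at least 50 reads, and all genes shared a common spread without GC trends. The rates therefore do not cover low genes such as BIK and BCL2, or members that vary with GC content. The members and lists were chosen with earlier results of these data known. All 10 members were named, list genes where called and otherwise mostly by range, and the 3 genes most like MOAP1. APAF1, CASP9, CASP8, XIAP, BBC3, PMAIP1, RASSF1, PNMA2, PNMA6A, PNMA8A and CDKN1A were named for their roles, after their values were seen. Of the genes chosen for the lists, 3 are not reported here. Coordinates, GC content (longest transcript), exon overlaps and 3′ UTRs of at least 30 bases came from GENCODE 29, which held 57836 of 58174 gene IDs (99.42%). PNMA8A is listed under its older symbol PNMAL1. The miRNA sequence came from RefSeq. Alternatives were another pseudocount, filters, scalings, limma without trend, voom on recovered reads, a replicate block, leaving out each library and, added after seeing the data, removal of GC and length trends (lowess, span 0.3). Figures were drawn with matplotlib 3.10.9.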

Additional observations from a re-analysis of the deposited data

How the results depend on the processing

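Both calls kept their direction in all 16 alternatives. BCL2L1 stayed called in each (limma FDR 3.22e-05 to 0.0072), MOAP1 in 10 of 16 (limma FDR 0.00312 to 0.023), and BCL2L11 in none of 15 (limma FDR 0.0116 to 0.12). BAX and BAK1, never called, took either sign (log2 −0.20 to 0.11 and −0.08 to 0.16). The median log2 difference of the members ranged from −0.08 to 0.11. The number of called genes, 2568 of 16006, became 3959 with GC and length trends removed, 3496 with voom, 5114 at an FDR under 0.05, and 768 to 3400 when one library was left out: 895, 922 and 873 without Ctrl 1, 2 and 3, and 2193, 768 and 3400 without MIR21-KO 1, 2 and 3. Members called, 2 of 9, became 1 of 10 with no filter on low values, beside 1810 of 29384 genes. With total-read scaling 3 members were called, beside 2718 of 16006 genes, and with GC and length trends removed also 3. At an FDR under 0.05 there were 4, and with 1 library left out 1 to 2. The 19 called genes of the apoptosis and stress lists became 28 at an FDR under 0.05, 25 with the trends removed and 4 to 24 with one library left out. Scaling shifted the median of all genes by −0.006 to −0.035 on the log2 scale.

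Same-numbered Ctrl and MIR21-KO libraries did not deviate together (correlations −0.171, −0.018 and −0.017). The correlations were taken without removal of GC trends, which had opposite signs in Ctrl 1 and MIR21-KO 1 (slopes −0.0863 and 0.158). They therefore cannot show that a shared effect of the replicate number is absent, or that the cultures were unpaired. With a replicate block in the fit, 651 genes, 1 member (BCL2L1, limma FDR 0.0072; MOAP1 0.0194) and 5 apoptosis genes were called, and 1770, 2 and 14 with the trends removed as well. Fits with a library left out or a block have fewer degrees of freedom. Why the counts differ between these fits was not tested. Depth limits BCL2 (29 to 59 reads) and BIK (11 to 36 reads), for which only large differences could be seen.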
